A study of Mus musculus with 10 samples.

Results

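The gene described here is Clu, which encodes clusterin. It was found by its symbol in the platform's probe-to-gene table, where it had 1 probe set, and it is 1 of 19505 genes named there. Its level was read in all 10 arrays of a study of mouse intestinal organoids, which are small epithelial structures kept in culture. Of these arrays, 5 came from organoids labelled KO for IκBα and 5 from WT organoids, and each array measured total RNA of 1 sample. IκBα is encoded by Nfkbia and retains NF-kB transcription factors in the cytoplasm. Every sample carries the mark P6, which the labels do not explain. The sources used here give neither the allele and the way the deletion was made nor the strain and age of the animals. It is not stated whether each array of a group had its own animal or culture, and the p-values therefore reflect spread that could be technical. All levels below are the deposited log2 values, and a difference is KO minus WT unless another order is named.

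Clusterin, also called apolipoprotein J, is a secreted glycoprotein that acts as a chaperone outside cells, where it keeps misfolded proteins in solution. It also binds lipoprotein particles and inhibits the membrane attack complex of complement, and it is taken up by receptors of the LDL receptor family. In the mouse intestine, Clu marks rare cells known as revival stem cells. These expand after injury, depend on the transcriptional coactivator YAP and give rise again to the Lgr5-positive stem cells of the crypt base.

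The arrays fell into the labelled groups. Over all probe sets, which do not replicate each other, Pearson's r reached 0.965 to 0.987 for pairs of KO arrays, 0.963 to 0.990 for pairs of WT arrays and 0.885 to 0.929 for mixed pairs. Nfkbia, the targeted gene, had levels of 5.27, 5.34, 4.73, 4.72 and 5.23 in KO 1 to 5, against 9.19, 8.95, 8.98, 8.95 and 9.85 in WT 1 to 5. The groups did not overlap, and the labels held for this gene. They also separated on 3 Y-linked genes: Eif2s3y lay between 3.74 and 4.27 in KO arrays and between 8.79 and 9.63 in WT arrays, and Uty and Kdm5d divided the same way. Hybridization spike-ins averaged 10.71 to 10.89 in KO arrays and 11.02 to 11.59 in WT arrays. Genotype, the origin marked by the Y-linked genes and the spike-in level cannot be told apart in the KO against WT comparison. In bulk RNA, more cells that express Clu and more Clu RNA per cell cannot be told apart either.

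Clu was among the brightest genes of every KO array and varied widely among the WT arrays. Its levels were 13.28, 13.04, 13.10, 13.26 and 13.33 in KO 1 to 5, against 6.87, 9.02, 7.91, 7.96 and 9.53 in WT 1 to 5. The lowest KO array stood 3.51 above the highest WT array, which is an 11.4-fold gap. Mean levels were 13.20 ± 0.13 in KO and 8.26 ± 1.04 in WT (SD, n = 5 each), a 30.8-fold difference of 4.95 (standard error 0.40; limma, adjusted p = 2.44e-06). An exact two-sided permutation test of the means gave p = 0.00794, the smallest value that the 252 allocations of 10 arrays to 2 groups of 5 allow. Over all probe sets with a gene name, 2928 of 19572 were higher in KO (15.0%) and 2296 were lower (11.7%), and for 2414 no WT array reached the lowest KO array (12.3%). The rise of Clu was exceeded by that of 34 genes.

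**Figure D1:**
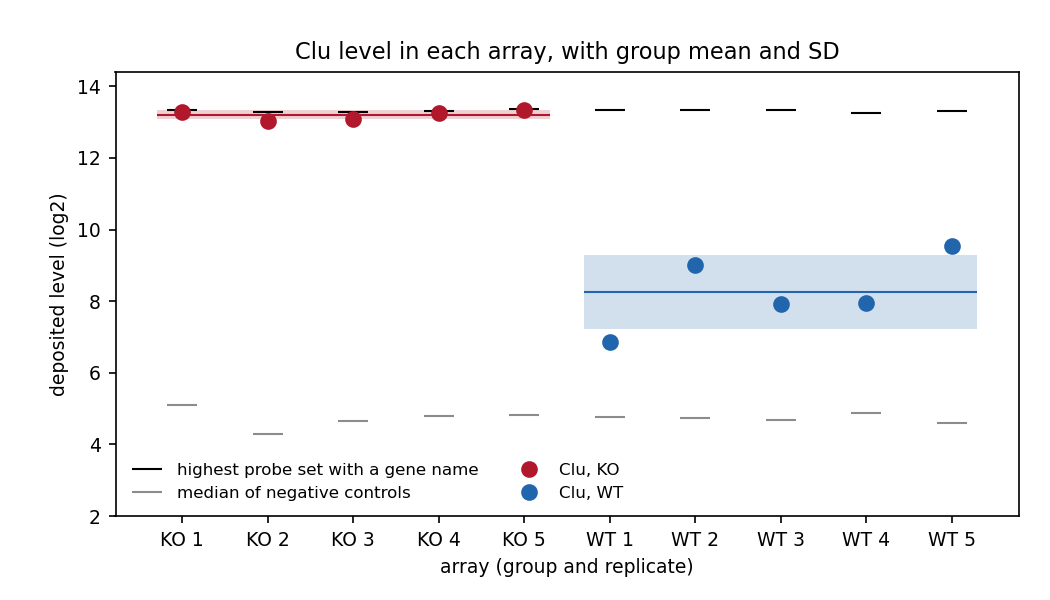
Clu level (log2, y axis) in each of the 10 arrays (x axis); points are arrays, lines and bands are the mean and SD of 5 arrays, black dashes mark the highest probe set with a gene name in that array and grey dashes the median of its negative controls. The 5 KO points sit between 13.04 and 13.33, next to the top of their arrays, and the 5 WT points are scattered between 6.87 and 9.53.

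The size of the difference depends on which WT array is taken. The KO mean was 12.7-fold above the highest WT array, WT 5, and 80.9-fold above the lowest, WT 1. Even WT 1 lay 1.77 above the highest median of the negative controls, which ranged from 4.30 to 5.10 over the 10 arrays. At the other end, Clu in the KO arrays lay 0.040 to 0.230 below the highest named probe set of the same array, where the WT arrays had it 3.77 to 6.47 below. That top differed little between arrays, at 13.26 to 13.37. Whether a level so close to the top of the scale still rises with the amount of RNA was not tested.

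Clu was steady among the KO arrays and spread out among the WT arrays. The 5 KO levels spanned 0.29, or 1.22-fold, and the 5 WT levels spanned 2.67, or 6.36-fold. Only 126 of 19505 genes had a larger SD over the WT arrays, and the median gene had 0.205. Among the 2997 genes whose WT mean lay within 0.5 of that of Clu, 24 had a larger WT SD, and their median was 0.234. Over the KO arrays, the SD of Clu stood at the 18.8th percentile of all genes. For the 9 genes with a KO mean within 0.5 of Clu, the median KO SD was 0.11, and 6 of them had a smaller SD than Clu. The ratio of the WT SD to the KO SD was 8.29 for Clu, a ratio exceeded by 53 genes, and 1.04 for the median gene.

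**Figure D2:**
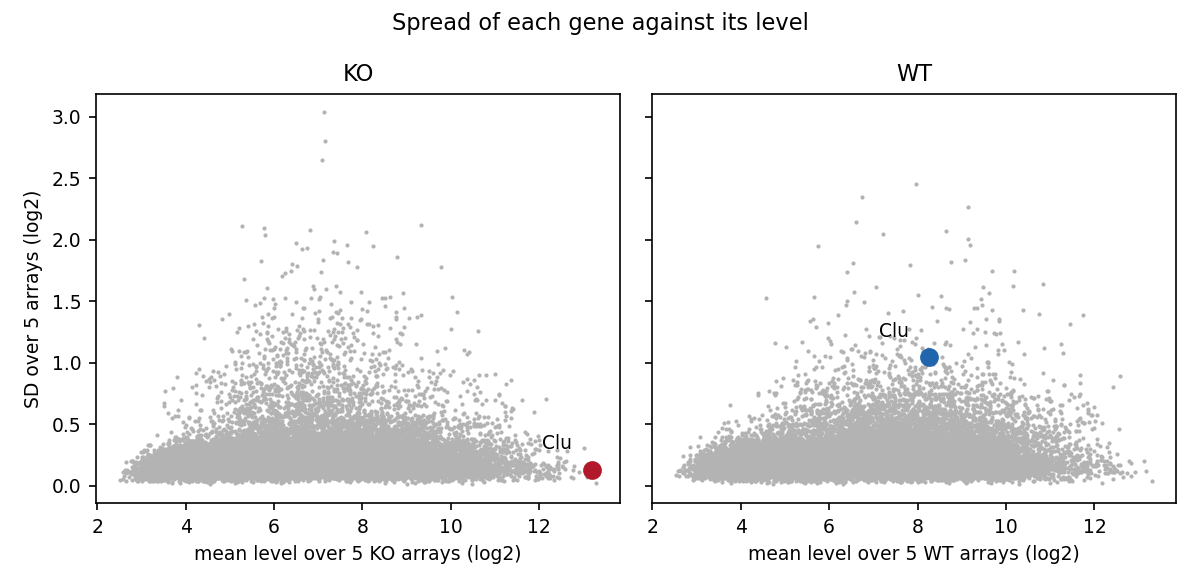
SD over 5 arrays (log2, y axis) against mean level over the same arrays (log2, x axis) for 19505 genes, KO on the left and WT on the right, with Clu as the large point. Clu lies at the bright end with an SD of 0.13 in KO, and at a middling level with an SD of 1.04 in WT.

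The WT arrays differed from each other in more than 1 way, and Clu did not follow the main one. The first principal component over the WT arrays held 54.6% of the variance, with WT 4 farthest from the others, and its r with Clu had a size of 0.26. The second held 26.3%, with WT 1 farthest out, and its r with Clu had a size of 0.85. The hybridization spike-ins were highest in WT 1 and had an r of -0.70 with Clu over the 5 WT arrays. The part of array quality in the WT differences was not tested.

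Genes that followed Clu over the WT arrays were sought among the 2529 other genes whose WT levels spanned 1 or more. A gene was taken as a follower when its Pearson r with Clu was 0.9 or more in each of the 5 sets of 4 WT arrays, so that no single array carried the likeness. By this rule 25 genes rose with Clu (0.989%) and 15 fell as Clu rose (0.593%). With 5 arrays these are descriptions and carry no p-value. Clu was not a hub: with each other gene of the same span in its place, the median number of followers was 142 and the quartiles were 26 and 257, and 24.4% of the genes had fewer followers than Clu.

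The closest followers took clear steps between the WT arrays. Clu itself put the arrays in the order WT 1, WT 3, WT 4, WT 2, WT 5, with WT 3 and WT 4 nearly equal. Fam20c, a kinase of the secretory pathway that phosphorylates exported proteins, read 6.94, 7.71, 7.36, 7.29 and 7.95 in WT 1 to 5, and its lowest r over any 4 arrays was 0.99. Ctse, the aspartic protease cathepsin E, read 5.51, 7.45, 6.23, 6.54 and 8.19. Msln, the surface glycoprotein mesothelin, read 5.44, 7.06, 6.02, 6.14 and 7.94. In each of these genes WT 1 was lowest, WT 2 second highest and WT 5 highest.

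Ctse and Msln moved over nearly as wide a range as Clu, with spans of 2.68 and 2.51, while Fam20c spanned 1.0. Vnn1, a pantetheinase that releases cysteamine, had the widest WT span of the 12 followers named by rule. Its levels were 4.26, 6.0, 4.73, 4.81 and 7.14 in WT 1 to 5, a span of 2.89, and its lowest r over any 4 arrays was 0.96. Tm4sf1, a membrane protein of the tetraspanin-like family, read 5.25, 6.54, 5.58, 5.78 and 7.0. Sptssb, a small subunit of serine palmitoyltransferase in sphingolipid synthesis, read 4.38, 5.47, 4.81, 5.10 and 6.2. The WT 1 levels of Vnn1 and Sptssb lay below the negative control medians of the WT arrays, which were 4.60 to 4.89.

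The other named followers took smaller steps. Rnd3, an atypical small GTPase, spanned 1.13 in WT, from 7.58 in WT 1 up to 8.71 in WT 5. Cmpk2, a mitochondrial nucleotide kinase known as an interferon-induced gene, lay between 5.01 and 6.70, and Rep15, an effector of the GTPase Rab15, between 7.07 and 8.41. Acta1, skeletal muscle actin, lay between 7.31 and 8.89. Tff1, a trefoil peptide made mainly by stomach epithelium, lay between 6.54 and 7.65, and Cyp3a16, a cytochrome P450, between 3.82 and 5.11. Cyp3a16 lay below the negative control median of its array in 2 WT arrays, WT 1 among them. In these 6 genes too, WT 1 was the lowest array and WT 5 the highest.

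**Figure D3:**
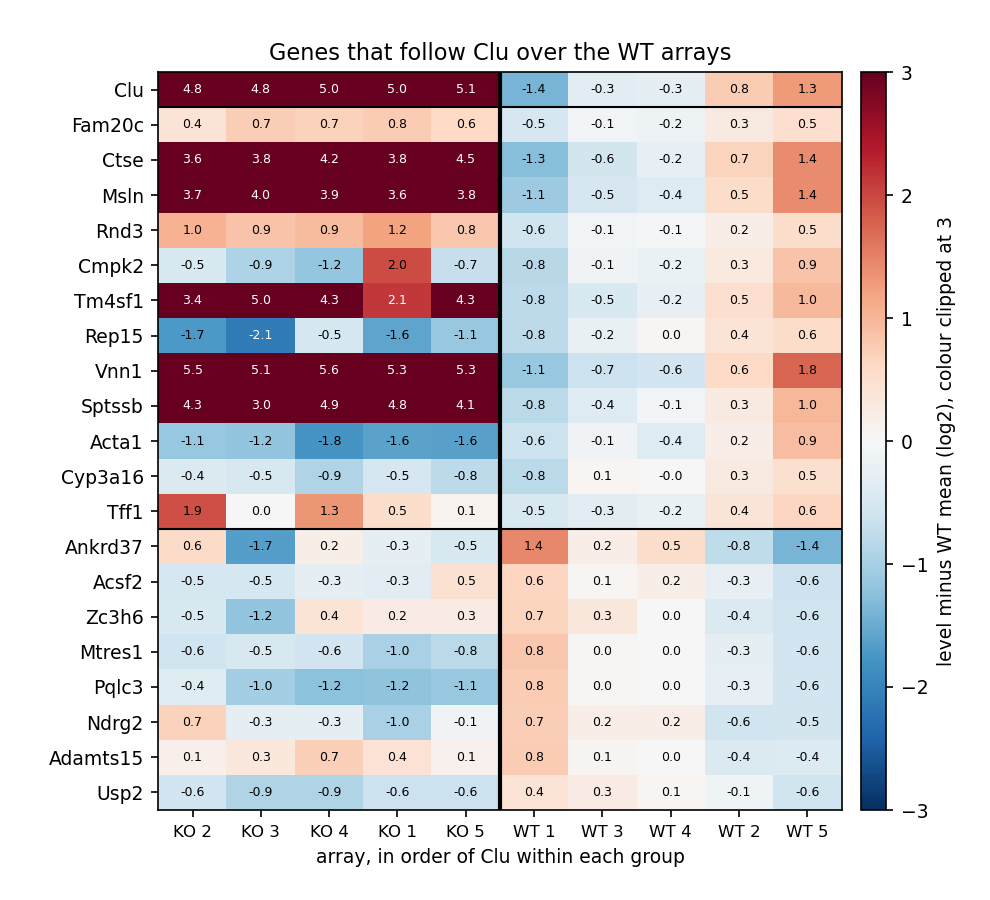
Level minus the WT mean (log2, colour and printed value, colour clipped at 3) of Clu, the 12 named genes that rose with it and the 8 named genes that fell as it rose over the WT arrays. Columns are arrays in order of Clu within each group, KO left of the line and WT right of it; the WT side grades from WT 1 to WT 5 by construction of the rule, and the KO side shows genes far above, near and below their WT level.

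The genes that fell as Clu rose were highest in WT 1. Ankrd37, an ankyrin repeat protein known as a target of hypoxia-inducible factors, read 9.68, 7.47, 8.45, 8.77 and 6.85 in WT 1 to 5, with r at or below -0.98 in every set of 4. It spanned 2.83, the widest of the 8 named genes of this kind. Pqlc3 read 9.67, 8.65, 8.94, 8.93 and 8.34. Mtres1, a mitochondrial transcription rescue factor, Acsf2, an acyl-CoA synthetase, Ndrg2, a stress-responsive protein of the N-myc downstream-regulated family, Zc3h6, a zinc finger protein, Adamts15, a secreted metalloprotease, and Usp2, a deubiquitinase, had WT spans between 1.02 and 1.37. WT 1 was the highest array for each of the 8.

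Among the KO arrays, where Clu was steady, the followers did not line up with it. Over the 5 KO arrays the r with Clu was above 0 for 13 of the 25 followers and below 0 for 12, and in none was it 0.9 or more; for Acta1 it was -0.92. The KO levels of Clu spanned only 0.29, so its order among them rests on small differences. Tm4sf1 shows this: it read 8.15, 9.46, 11.08, 10.35 and 10.32 in KO 1 to 5, with KO 1 lowest, although KO 1 had the second highest Clu level.

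Set against WT, the followers went different ways in KO. Of the 25, 10 were higher, 5 were lower and 10 did not pass (limma, adjusted p under 0.05), and their median difference was -0.02, against -0.01 over all probe sets with a gene name, of which 15.0% were higher and 11.7% lower. Among genes with a WT span of 1 or more, 15.5% were higher and 27.0% lower. The followers were chosen on the same WT arrays that the KO arrays were compared with, so these counts are given as a description only. WT 1 decided the lower count, which was 9 without that array.

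Of the 12 named followers, 7 were higher in KO. Vnn1 reached 10.73, 10.93, 10.45, 10.99 and 10.71 in KO 1 to 5, with a mean of 10.76 ± 0.21 in KO and 5.39 ± 1.17 in WT (SD, n = 5 each), a difference of 5.37 (limma, adjusted p = 3.37e-06). Ctse read 10.62, 10.34, 10.55, 10.97 and 11.29 in KO 1 to 5, and its difference was 3.97 (limma, adjusted p = 2.43e-05). Msln read 10.16, 10.21, 10.50, 10.39 and 10.31 in KO 1 to 5, and its difference was 3.79 (limma, adjusted p = 1.48e-05). In each of these genes the KO arrays lay above every WT array.

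Sptssb rose by 4.23 (limma, adjusted p = 7.88e-06) and Tm4sf1 by 3.84 (limma, adjusted p = 0.000128), both without overlap. Rnd3 rose by 0.97 (limma, adjusted p = 0.00198) and Fam20c by 0.64 (limma, adjusted p = 0.0172). Fam20c overlapped: WT 5, at 7.95, lay above KO 2, at 7.86. It had the tightest likeness to Clu over the WT arrays among the genes examined, and a difference far smaller than that of Clu.

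Other followers were lower in KO or not distinguishable. Acta1 averaged 6.50 ± 0.29 in KO and 7.95 ± 0.61 in WT (SD, n = 5 each), a difference of -1.46 (limma, adjusted p = 0.00142). Rep15 averaged 6.44 ± 0.60 in KO and 7.85 ± 0.53 in WT (SD, n = 5 each), a difference of -1.42 (limma, adjusted p = 0.00487). Cmpk2 read 7.80, 5.40, 4.93, 4.69 and 5.16 in KO 1 to 5, where KO 1 stood apart, and it did not pass (difference -0.26, limma, adjusted p = 0.779). Tff1 did not pass either, with KO levels from 7.01 to 8.95. Of the 15 genes that fell as Clu rose in WT, 2 were higher in KO, 6 were lower and 7 did not pass. The shares among all genes with a WT span of 1 or more were 15.5% higher and 27.0% lower. The 2 of the 15 that were higher, named after their values were seen, were Rab34, a small GTPase, by 3.0 and Tlr5, the receptor for bacterial flagellin, by 2.88 (limma, adjusted p = 6.37e-07 and 1.33e-06). Rab34 lay below the negative control median of its array in 2 WT arrays and Tlr5 in 1.

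A different measure of likeness used all 10 arrays: the Euclidean distance to Clu in levels centred on the WT mean, which a gene keeps small by rising about as much as Clu in KO. Vnn1 was nearest, at a distance of 1.28, followed by Il1rn at 1.47, Anxa1 at 1.59, Glipr1 at 1.68, Csf1 at 1.74 and Plekhs1 at 1.78. Il1rn encodes the antagonist of the interleukin-1 receptor, Anxa1 the phospholipid-binding protein annexin A1, and Csf1 the macrophage growth factor M-CSF. These 6 rose by 4.48 to 5.37 in KO. Vnn1 and Glipr1 were also followers over the WT arrays, whereas Plekhs1 lay below the negative control median of its own array in all 5 WT arrays, so that no WT pattern is read from it.

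Il1rn, Anxa1 and Csf1 shared the high WT 5 of Clu and differed from it elsewhere. Il1rn read 5.43, 5.96, 5.26, 4.72 and 6.74 in WT 1 to 5, and Csf1 read 5.67, 6.34, 5.73, 5.06 and 7.01. Both had their lowest WT level in WT 4, whereas Clu had its lowest in WT 1. In WT 4, Il1rn lay below the negative control median of that array, 4.89, and Csf1 lay little above it. Over the 5 WT arrays their r with Clu was 0.73 and 0.77.

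Clu rose together with most other markers of the revival state. Of 24 listed markers, Clu itself not counted, 21 were measured; 19 were higher in KO, 0 lower, and 2 did not pass, with a median difference of 2.85, beside a background of 15.0% higher and 11.7% lower. In each of these 19 the lowest KO array exceeded the highest WT array, which 12.3% of all named probe sets did. Anxa3 had 11.09, 11.19, 11.37, 11.07 and 11.34 in KO 1 to 5, against 6.39, 6.41, 6.22, 6.10 and 6.79 in WT 1 to 5, a difference of 4.83 (limma, adjusted p = 3.28e-10). Plaur, the urokinase receptor, rose by 3.76 and Anxa5 by 4.04 (limma, adjusted p = 6.94e-09 and 1.31e-08). The 2 that did not pass were Krt19, at 12.21 ± 0.28 in KO and 11.84 ± 0.19 in WT, and Emp1, at 10.79 ± 0.90 in KO and 9.63 ± 0.86 in WT (SD, n = 5 each). Without KO 5, Krt19 passed (limma, adjusted p = 0.0325), and without KO 1, Emp1 passed (limma, adjusted p = 0.0395).

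Within WT, the mean level of the revival markers varied far less than Clu. Members that move in different directions narrow such a mean, and 9 of the 21 had a WT span of 1 or more, with 2.51 for Msln. The mean centred level of the list had a WT span of 0.49, against the 2.67 of Clu. Its r with Clu over the 5 WT arrays was 0.71, with 0.29 to 0.95 over the sets of 4. The high value came from WT 5, which read -1.14 while the other WT arrays lay between -1.63 and -1.42. Over the 5 KO arrays, where Clu spanned only 0.29, the r of the list with Clu was -0.86. Ly6e, a surface protein of the Ly6 family, ran against Clu in WT: it read 9.98, 7.60, 8.45, 7.42 and 8.28 in WT 1 to 5, highest where Clu was lowest, and rose to 13.03 ± 0.31 in KO (SD, n = 5). Of the 21, Msln alone met the rule for followers within WT.

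Fetal epithelium genes overlapped with the revival list in 6 higher members, and most were higher in KO. Over all named probe sets, 15.0% were higher and 11.7% lower. Of 17 fetal genes measured, 10 were higher in KO, 1 lower and 6 did not pass, with a median of 2.23. The 1 lower gene was Igf2bp3, an RNA-binding protein of early development, at 6.51 ± 0.21 in KO and 9.20 ± 0.14 in WT (SD, n = 5 each). The list's level had an r of 0.86 with Clu over the WT arrays, with 0.77 to 0.92 over the sets of 4. Over the KO arrays that r was -0.91, on a Clu span of only 0.29. Crypt base stem cell markers split, with 5 of 16 higher, 6 lower and 5 not passing, beside the same 15.0% and 11.7%. Aqp4, a water channel, fell by 4.49 and Smoc2, a matrix protein, fell by 1.91, whereas Prom1 rose by 1.82 (limma, adjusted p = 8.03e-07, 2.06e-05 and 5.07e-06). Lgr5, the receptor that defines these stem cells, read 8.65, 8.48, 8.09, 8.29 and 9.54 in KO 1 to 5, against 9.99, 9.32, 10.96, 7.56 and 9.78 in WT 1 to 5, and did not pass. Without WT 4, whose Lgr5 level was the lowest of the 10, Lgr5 passed as lower in KO (limma, adjusted p = 0.0129). The level of the crypt base list had an r of 0.08 with Clu over the WT arrays.

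Genes known to act on Clu were mostly higher in KO. The list holds YAP and its partners, AP-1 proteins, heat shock factors and TGF-beta signalling, which are known from other systems to change Clu transcription. The heat shock factor gene Hsf1 was not measured. Of 26 measured, 18 were higher, 0 lower and 8 did not pass, with a median difference of 0.85. The shares over all named probe sets were again 15.0% higher and 11.7% lower. Wwtr1, which encodes the YAP paralogue TAZ, read 8.37, 8.49, 8.61, 8.36 and 8.33 in KO 1 to 5, against 6.71, 6.25, 6.11, 5.96 and 6.31 in WT 1 to 5 (limma, adjusted p = 3.07e-07). Yap1 itself had 8.79 ± 0.11 in KO and 8.51 ± 0.14 in WT (SD, n = 5 each) and did not pass (limma, adjusted p = 0.0586), but passed without KO 2 or without WT 3 (limma, adjusted p = 0.0422 and 0.0458) and, with all 10 arrays, under cyclic loess (limma, adjusted p = 0.0478).

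Tgfb2, a TGF-beta ligand, rose by 3.12 and Tead2, a DNA-binding partner of YAP, by 2.83. Smad7, the inhibitor of TGF-beta signalling that the pathway itself induces, rose by 1.30, and Smad3, a transducer of that signal, by 0.85. Immediate early genes were uneven across the KO arrays. Egr1 read 9.79, 11.97, 9.21, 11.02 and 10.13 in KO 1 to 5, against 8.57, 8.08, 8.06, 8.03 and 8.64 in WT 1 to 5. Fos rose by 2.05 and Jun by 1.42 (limma, adjusted p = 0.013 and 0.00345). Fosb stood at 11.06 in KO 2 and between 6.98 and 7.18 in the other KO arrays. KO 2, highest for Egr1, Fos, Fosb and Jun, was the KO array with the lowest Clu level. The KO levels of Clu spanned only 0.29, so that rank rests on small differences, and a relation was not tested. Over the WT arrays, the level of this list had an r of -0.31 with Clu.

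Beside a background of 15.0% higher and 11.7% lower, the YAP target list showed 20 of 26 higher in KO, 0 lower and 6 not passing. Its median was 2.40. Ankrd1, a standard YAP target, rose by 5.52, Myof by 5.03, Ccn1 by 3.93 and Fjx1 by 3.46. The list's mean level varied by only 0.13 over the WT arrays, between -1.19 and -1.06. Single members varied more, and 5 of the 26 had a WT span of 1 or more. Of 23 NF-kB targets, 16 were higher, 3 lower (Nfkbia among them) and 4 did not pass, with a median of 1.39. Cxcl5, a neutrophil chemokine, rose by 7.37, Cxcl16 by 3.63 and Lcn2, an iron-scavenging antibacterial protein, by 7.66. Lcn2 shared the pattern of Clu in both groups: it read 13.31, 13.19, 13.09, 13.20 and 13.37 in KO 1 to 5, against 4.96, 5.84, 5.50, 5.08 and 6.47 in WT 1 to 5. In KO it was as close to the top of the arrays as Clu, and in WT its r with Clu was 0.93, with a lowest value of 0.88 over the sets of 4, just short of the rule.

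**Figure D4:**
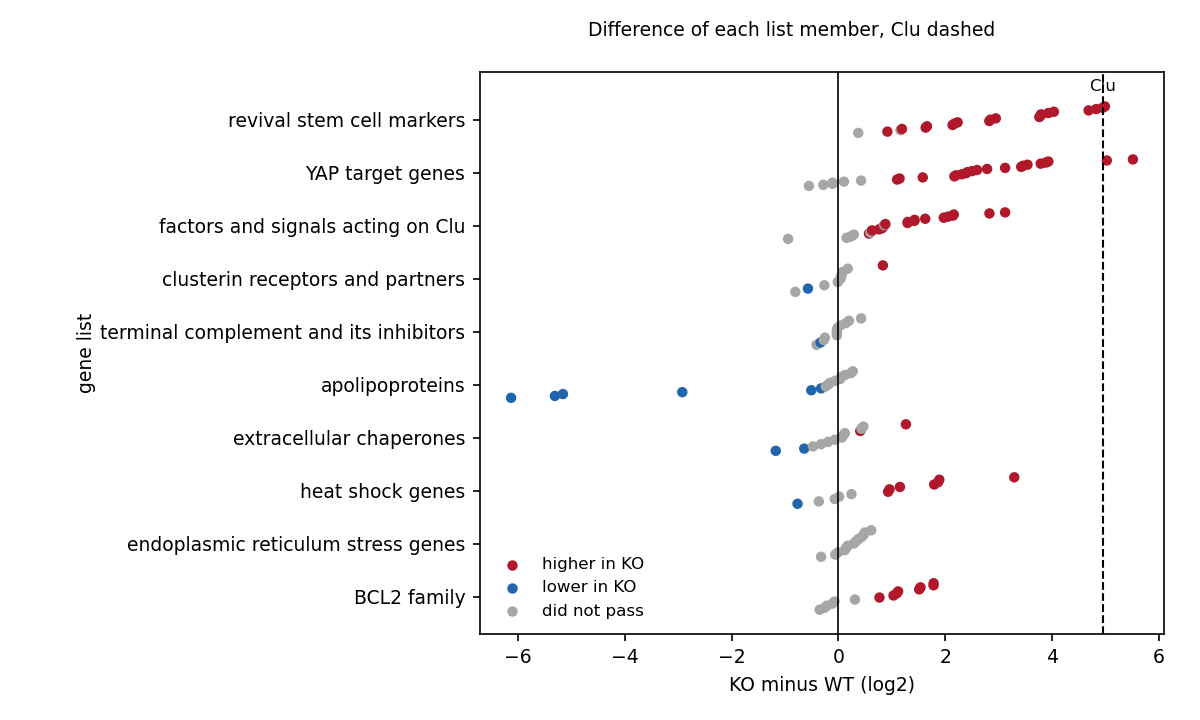
Difference KO minus WT (log2, x axis) of every measured member of 10 gene lists (y axis); 1 point is 1 gene, red where it was higher in KO, blue where lower, grey where it did not pass limma at an adjusted p of 0.05, and the dashed line is Clu at 4.95. Revival markers, YAP targets and genes acting on Clu lie mostly to the right, receptors and complement genes cluster around 0, and 4 apolipoproteins lie far to the left.

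Receptors and binding partners through which clusterin is known to act passed the test about as often as genes at large. Of 9 measured, 1 was higher in KO, 1 lower and 7 did not pass, with a median of 0.04, beside 15.0% higher and 11.7% lower over all named probe sets. Lrp2, or megalin, its best-described uptake receptor, read 5.76 ± 0.17 in KO and 5.77 ± 0.30 in WT (SD, n = 5 each). Lrp8 averaged 7.79 ± 0.68 in KO and 7.71 ± 0.79 in WT (SD, n = 5 each), and Lrp1 7.67 ± 0.71 in KO and 8.48 ± 0.73 in WT (SD, n = 5 each). None of these 3 passed. Trem2 and Plxna4, receptors on microglia and neurons, lay at 5.95 and 4.09 in KO and at 5.89 and 4.04 in WT, with Plxna4 below the negative control median in 4 KO and 5 WT arrays. Xrcc6, the DNA repair protein Ku70, and Hspa5, the chaperone BiP, did not pass either.

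Vldlr, a receptor of the same family, was the member that rose, by 0.83 (limma, adjusted p = 0.0287). Its levels were 8.24, 8.17, 7.26, 8.40 and 8.56 in KO 1 to 5, against 7.25, 6.85, 7.66, 7.70 and 6.99 in WT 1 to 5, so that KO 3 lay within the WT range. The call was lost on leaving out KO 1, 2, 4 or 5, or WT 1, 2 or 5, with an adjusted p of up to 0.0749. Commd1, an inhibitor of NF-kB and a known intracellular partner of clusterin, fell by 0.57, with 7.50 ± 0.13 in KO and 8.07 ± 0.23 in WT (SD, n = 5 each; limma, adjusted p = 0.00503).

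Genes of the terminal complement pathway and its inhibitors were dim, with a median level of 4.96 in KO and 4.96 in WT. Of 12 measured, 0 were higher, 1 was lower and 11 did not pass, with a median of -0.03. The background over all named probe sets was 15.0% higher and 11.7% lower. At an unadjusted p under 0.05 the list had 4 members. The 1 that passed was C8b, at 5.51 ± 0.08 in KO and 5.84 ± 0.12 in WT (SD, n = 5 each; limma, adjusted p = 0.0201), and it missed the threshold without WT 2 (limma, adjusted p = 0.0564). Vtn, which like clusterin blocks assembly of the membrane attack complex, read 6.14 ± 0.16 in KO and 6.01 ± 0.15 in WT, and the inhibitor Cd59a 4.71 ± 0.33 in KO and 4.52 ± 0.29 in WT (SD, n = 5 each).

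No other measured apolipoprotein was called higher in KO. Of 15 measured, 0 were higher in KO, 6 lower and 9 did not pass, with a median of -0.19. All named probe sets had 15.0% higher and 11.7% lower. Apoa4 read 6.29, 6.64, 6.55, 6.24 and 6.49 in KO 1 to 5, against 11.12, 13.05, 12.32, 13.26 and 13.12 in WT 1 to 5. Apob, the structural protein of chylomicrons, fell by 5.31, Apoa1 fell by 5.16 and Apoc3 fell by 2.92 (limma, adjusted p = 2.58e-07, 1.16e-05 and 0.000371). These 4 are enterocyte genes that carry absorbed fat. Apoe averaged 7.32 ± 0.18 in KO and 7.51 ± 0.11 in WT (SD, n = 5 each) and did not pass. Within WT the apolipoproteins were lowest in WT 1, as Clu was, and highest in WT 4.

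Other chaperones outside the cell also passed about as often as genes at large. Of 13 measured, 2 were higher, 2 lower and 9 did not pass, with a median of 0.06, beside the same 15.0% and 11.7%. Hp, haptoglobin, rose by 1.26 (limma, adjusted p = 0.0269), with KO levels of 7.73, 5.31, 5.78, 5.50 and 6.34, against 4.72 to 4.99 in WT. Cst3, cystatin C, rose by 0.41 (limma, adjusted p = 0.0273). Both calls were fragile: Hp was lost without KO 5 or without WT 2, 3 or 5, at an adjusted p of up to 0.0614, and Cst3 without KO 1 or 5 or without WT 1 or 2, at up to 0.0716. Alb, albumin, fell by 1.17 and Dnajb11, a cochaperone of the endoplasmic reticulum, fell by 0.64 (limma, adjusted p = 0.00157 and 0.0181).

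Chaperones inside the cell were read in a heat shock list and in a list for the endoplasmic reticulum, which were not tested against each other. The heat shock list is cytosolic apart from the mitochondrial partners Hspd1 and Hspe1. Of its 12 measured genes, 7 were higher in KO, 1 lower and 4 did not pass, with a median of 0.94. Named probe sets at large were 15.0% higher and 11.7% lower. Cryab, a small heat shock protein, read 9.0, 8.86, 9.19, 8.78 and 9.40 in KO 1 to 5, against 5.38, 5.97, 5.71, 6.08 and 5.63 in WT 1 to 5 (limma, adjusted p = 3.01e-08). Hspa1b rose by 1.89, Hspb1 by 1.87 and their cochaperone Bag3 by 0.96. The lower gene was Hspd1, a chaperonin, by -0.77 (limma, adjusted p = 0.0345), a call lost without KO 1, 4 or 5 or without WT 2, 3 or 5, at an adjusted p of up to 0.0867. Of 13 genes of endoplasmic reticulum stress, 0 passed in limma and 1 had an unadjusted p under 0.05. The nearest was Xbp1, a transcription factor of this response, at 11.29 ± 0.36 in KO and 10.82 ± 0.16 in WT (SD, n = 5 each; limma, adjusted p = 0.0557), which passed without KO 2 or KO 3 (limma, adjusted p = 0.00787 and 0.0497) and, with all 10 arrays, under a trended robust variance or with the dimmest probe sets left out (limma, adjusted p = 0.0489 and 0.0498). Herpud1, a gene of the same response, tracked Clu over the WT arrays, at 9.0, 9.59, 9.33, 9.33 and 9.86 in WT 1 to 5 with r of 0.99, on a span of 0.85 that was too small for the rule. It did not pass between KO and WT, and did without KO 3 (limma, adjusted p = 0.0482).

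The BCL2 family, with which intracellular clusterin is reported to interact, had 8 of 14 members higher in KO, 0 lower and 6 not passing. Its median was 0.90, and all named probe sets had 15.0% higher and 11.7% lower. The higher members included the survival gene Bcl2l1, by 1.78, and the death genes Bcl2l11, by 1.51, Pmaip1, by 1.12, and Bok, by 1.09 (limma, adjusted p = 0.000136, 0.000335, 0.000677 and 0.000171). Bax, another member of this family, was not measured.

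Among the cell types of the epithelium, the goblet list came closest to Clu within WT. Its mean centred level was 0.37, 1.17, 0.51, 0.76 and 1.26 in WT 1 to 5, with r of 0.96 and 0.94 to 1.0 over the sets of 4. Single members were less close, and 0 of the 12 met the rule for followers. The 4 members with a WT span of 1 or more all had an r above 0, and 1 of them had 0.9 or more. Spdef, the transcription factor of goblet cell maturation, named after its values were seen, read 7.43, 8.21, 7.71, 7.63 and 8.31 in WT 1 to 5. Hepacam2, which is not on the goblet list and was also named after its values were seen, was a follower by the rule, at 8.74, 9.39, 9.15, 9.26 and 9.77 in WT 1 to 5. In KO the direction was the other one: of 12 goblet markers, 0 were higher, 8 lower and 4 did not pass, with a median of -1.27. The background was 15.0% higher and 11.7% lower. Muc2, the main intestinal mucin, read 8.20, 8.43, 6.23, 9.55 and 8.85 in KO 1 to 5, against 10.82, 11.51, 10.44, 11.27 and 11.31 in WT 1 to 5 (limma, adjusted p = 0.0012). Klk1 fell by 4.98 and Atoh1, the factor that commits secretory cells, fell by 1.07. The goblet level of KO 4, at 0.48, lay above that of WT 1.

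Absorptive enterocyte markers were lower in KO in 19 of 21 measured genes, with 0 higher, 2 not passing and a median of -5.05. Sis, sucrase-isomaltase, read between 4.66 and 4.96 in KO and between 11.08 and 12.67 in WT. Fabp2 fell by 6.85, Alpi fell by 6.68 and Mttp fell by 5.76. Within WT their level was 1.0, 2.72, 1.60, 3.07 and 2.61 in WT 1 to 5, with r of 0.70 with Clu and 0.30 to 0.97 over the sets of 4. WT 4 was the array that departed, with the highest enterocyte level and a middling Clu level. Proliferation genes ran low in WT 4 as well, at -0.69 against 0.45 to 1.03 in the other WT arrays, and their r with Clu was 0.01. Over the KO arrays their level ranged from -1.62 to 1.01, with an r of -0.93 on a Clu span of only 0.29. Beside 15.0% higher and 11.7% lower over all named probe sets, 0 of 18 proliferation genes were higher in KO and 1 was lower. The remaining 17 did not pass, and the median of the list was -0.76. At an unadjusted p under 0.05 (limma) it had 6 members. The lower one was Pcna, a clamp of DNA replication, by -0.78, and its call was lost without KO 1, 4 or 5, without WT 1, 2, 3 or 5 and on adjustment over all probe sets, at an adjusted p of 0.0563 to 0.108 (limma).

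**Figure D5:**
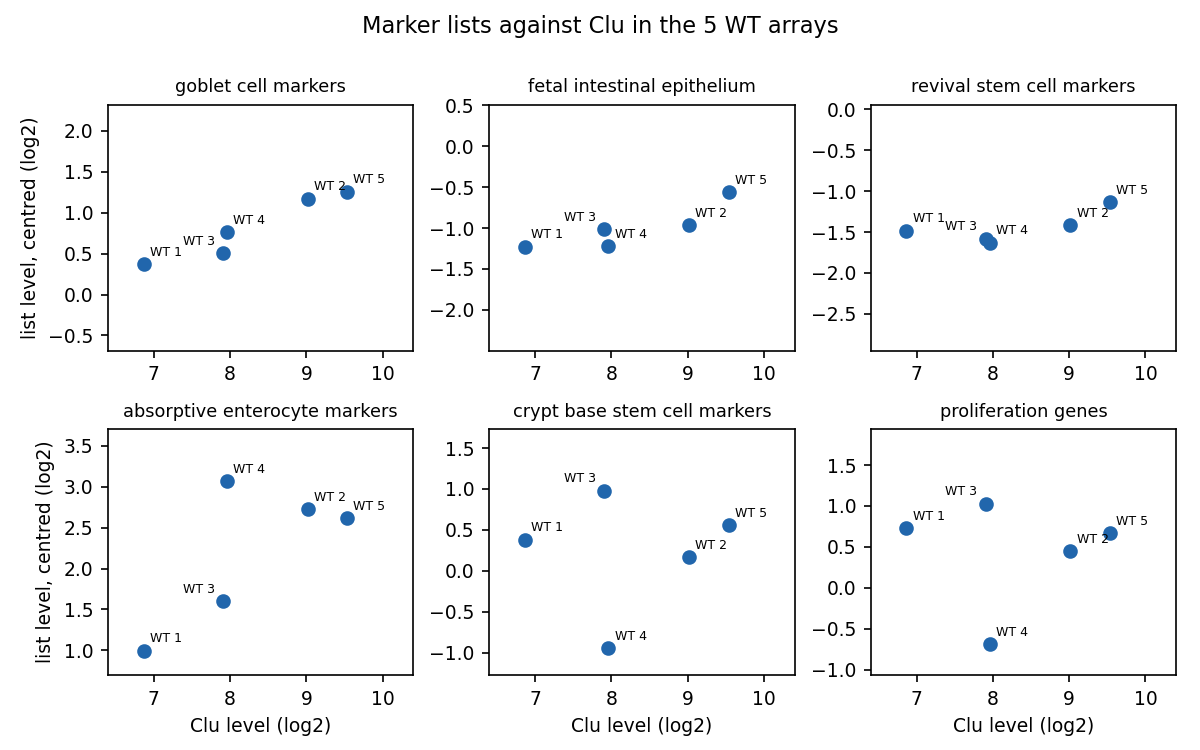
Mean centred level of 6 marker lists (log2, y axis, Clu in none of them) against the Clu level (log2, x axis) in the 5 WT arrays; each point is 1 array and every panel covers 3 log2 units. The goblet list climbs with Clu, the fetal list less steeply, and in the enterocyte, crypt base and proliferation panels WT 4 stands apart.

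The remaining epithelial lists had a lower r with Clu over the WT arrays, at 0.45 for Paneth, 0.42 for enteroendocrine, 0.03 for tuft and 0.20 for epithelial identity markers, and the Paneth value was 0.71 under cyclic loess. Paneth cell markers were lower in KO in 13 of 14 genes and higher in 1, with a median of -5.81. A pair of alpha-defensin genes among them had identical values in all 10 arrays, so they are not separate measurements. The mean level of the list varied by only 0.17 in WT, although 5 of the 14 genes had a WT span of 1 or more. Enteroendocrine markers were lower in 14 of 15, with 0 higher, 1 not passing and a median of -2.55. Of 12 tuft cell markers, 1 was higher, 1 lower and 10 did not pass, with a median of -0.20. Over all named probe sets the shares were 15.0% higher and 11.7% lower. Epithelial identity markers were mixed, with 4 of 11 higher, 4 lower and 3 not passing, and a median of -0.16. Epcam read 10.82 ± 0.12 in KO and 11.12 ± 0.16 in WT (SD, n = 5 each) and did not pass (limma, adjusted p = 0.0589), though it did without WT 4 (limma, adjusted p = 0.023) and, with all 10 arrays, under cyclic loess, 75th percentile centring or a trended robust variance (limma, adjusted p = 0.0376, 0.0397 and 0.0414). Krt18 rose by 1.43, while the intestinal transcription factors Cdx1 and Cdx2 had differences of -3.01 and -2.16.

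Clusterin is also made by cells outside the epithelium, so markers of those cells were read beside it. The shares over all named probe sets were 15.0% higher and 11.7% lower. Of 13 fibroblast and smooth muscle markers, 0 were higher, 1 lower and 12 did not pass, with a median of -0.05. The lower one was Lum, at 3.95 ± 0.08 in KO and 4.34 ± 0.12 in WT (SD, n = 5 each), which lay below the negative control median in all 10 arrays. The summed level of this list, as a centred mean, ranged from -0.17 to 0.07 in KO and from -0.08 to 0.17 in WT. Of 10 endothelial and glial markers, 1 was higher (S100b, by 0.46), 0 lower and 9 did not pass, with a median of 0.05, and the level ranged from -0.09 to 0.13 in KO and from -0.06 to 0.02 in WT.

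Of 13 immune markers, 4 were higher, 1 lower and 8 did not pass, with a median of 0.04, and their level ranged from 0.02 to 0.44 in KO and from -0.33 to -0.05 in WT. The higher ones were Cd14, by 4.70, Csf1r, by 1.53, Itgam, by 1.56, and Aif1, by 1.34, and the lower one was Lyz2, by -4.18. Ptprc, the defining marker of immune cells, read 5.65, 5.50, 5.37, 5.50 and 5.43 in KO 1 to 5, against 5.76, 5.64, 5.43, 6.0 and 5.65 in WT 1 to 5, and did not pass. The levels of Aif1 lay below the negative control median of their array in 3 KO and 5 WT arrays. The mean level of the immune list stood higher in every KO array than in every WT array, by a narrow gap from -0.05 to 0.02. Most members did not share this, as 8 of 13 did not pass and Lyz2 fell. The part of this list in the result for Clu was not tested.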

How the data were processed

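Total RNA of 10 organoid samples (5 KO, 5 WT) was measured on 1 array each, from 100 ng of RNA labelled by the GeneChip WT PLUS method, per the labels' protocols. For every probe set the authors deposited a log2 level in each array. The submitters' processing notes name RMA and limma, with no versions or genome build. RMA puts levels on a log scale on which differences near background are compressed. Scanner files were not used, hence no call of absence or saturation was made, and the number of arrays limits precision. Of 28846 probe sets, 6640 were controls and 19572 had 1 gene symbol (19505 genes); for the 55 genes with more than 1, the probe set brightest on average was taken. Older gene symbols were kept as the platform table gives them.

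Levels were used as deposited. KO and WT were compared with limma 3.58.1 (R 4.3.3) on all probe sets, with Benjamini-Hochberg adjustment over the 19572 and a threshold of 0.05; any adjusted p in the text comes from this fit or from the alternative named beside it. A list's level is the mean of its members, Clu left out, after centring every gene on its 10-array mean. The 23 lists (371 distinct genes, 338 measured) and Clu itself were chosen with earlier results of these data known, so lists are described by counts and medians without a set test. Some lists share genes. The counts of every list are to be read beside the 15.0% higher and 11.7% lower over all named probe sets. The rule for named genes took Clu, Nfkbia, the 12 followers and 8 opposite genes with the strongest weakest r, the 6 genes nearest to Clu over the 10 arrays, from each list the 4 smallest p-values, and any member of the receptor, complement and regulator lists. Predicted genes and olfactory receptors were counted only. Members named to say which genes a small count holds are outside the rule where they are not among those 4. Alternatives changed the normalization, the filter, the variance model, the weights, the adjustment, the arrays left in and the rule for followers. On simulated data of 19572 probe sets with the means and spread of these arrays, the KO against WT step recovered 34% of genes changed by 0.5, 80% by 1, 98% by 2 and 100% by 4. Only 50 probe sets were changed at each size, far fewer than were called in the real data. Both groups shared 1 SD per gene there, so the rates may differ for the real comparison. Same-numbered KO and WT arrays did not deviate together (r of their deviations -0.07 to 0.36), so the numbers were not taken to pair samples. Python 3.11.15, numpy 2.4.6, pandas 2.3.3, scipy 1.17.1 and matplotlib 3.10.9 were used.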

Additional observations from a re-analysis of the deposited data

Results flagged for a closer look

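The values of 1 array stood far from those of the other 4 arrays of its group, judged by Dixon's gap-to-range ratio, in 15 of 274 groups tested. Chance marks about 1 group in 20. Neither the KO nor the WT levels of Clu were among them. KO 2 stood apart for Fosb at 11.06 (other KO arrays 6.98 to 7.18), for Alb at 5.35 (4.88 to 4.93), for Pqlc3 at 8.55 (7.69 to 7.88), for Ly6e at 12.5 (13.07 to 13.24) and for the mean level of the genes known to act on Clu at 0.84 (0.44 to 0.53). KO 1 stood apart for Cmpk2 at 7.80 (4.69 to 5.40) and Itgam at 8.37 (6.14 to 6.64), KO 4 for Plxna4 at 5.06 (3.62 to 3.96), and KO 5 for Acsf2 at 8.29 (7.30 to 7.55). WT 4 stood apart for Smad7 at 6.07 (other WT arrays 5.41 to 5.56), Ankrd1 at 5.66 (5.33 to 5.38), Fosb at 7.17 (6.95 to 7.01) and Kdm5d at 4.92 (6.26 to 6.66). WT 1 stood apart for Alb at 5.30 (6.24 to 6.55), and WT 5 for Nfkbia at 9.85 (8.95 to 9.19).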

How the results depend on the processing

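The difference of Clu kept its direction and its call under 7 changes of normalization, filter, variance model, weights, block or adjustment (4.92 to 4.95, adjusted p 1.77e-06 to 5.33e-05) and on leaving out each array in turn (4.60 to 5.27, adjusted p 1.16e-06 to 1.64e-05). Its WT SD lay between 0.80 and 1.19 and its KO SD between 0.10 and 0.14 with each array left out. The counts over all probe sets were 2475 to 2935 higher and 1855 to 2310 lower with an array left out. With the label number as a replicate block, which the arrays did not bear out as a pairing (numbers 3 and 4 alone correlated best with their own number), Clu had an adjusted p of 5.33e-05 and the counts were 2739 and 2174. Under this block C8b, Cst3, Mtres1 and Vldlr lost their calls (adjusted p 0.0566, 0.0589, 0.0628 and 0.0578) and Emp1 and Lrp1 gained one (0.0326 and 0.0345). The number of genes following Clu rests on the rule: 7 rose and 2 fell with it at a WT span of 2 or more, 125 and 171 with no limit on span, 50 and 32 at an r of 0.8, and 45 and 29 with r over the 5 arrays only. With the same order of arrays in place of r, 27 rose, of which 14 were shared with the 25, and 7 fell. Under cyclic loess 22 of the 25 remained and under 75th percentile centring 18. Followers lower in KO numbered 4 to 9 with each array left out, the highest without WT 1. The r with Clu over the WT arrays moved to -0.50 for clusterin receptors under cyclic loess and to 0.49 for the BCL2 family under 75th percentile centring. Cyclic loess also raised it to 0.71 for Paneth markers, 0.72 for heat shock genes (0.42 on the deposited levels), 0.67 for YAP targets (0.45), 0.35 for terminal complement (0.07) and 0.37 for endothelial and glial markers (0.22), and 75th percentile centring took YAP targets to 0.27. The r of the tuft, proliferation and endothelial and glial lists, at 0.03, 0.01 and 0.22, changed sign under at least one of them. Of 113 named genes besides Clu, 89 kept direction and call throughout. The 6 that turned sign, none of which passed the test, ranged on leaving out an array from -0.68 to 0.027 (Ankrd37), -0.089 to 0.11 (Lrp2), -0.25 to 0.36 (Lrp8), -0.41 to 0.0058 (Ndrg2), -0.20 to 0.16 (Plxna4) and -0.30 to 0.11 (Zc3h6). The cause was not tested.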
